A study of Mus musculus with 8 samples.

Results

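Kruppel-like factors are zinc finger transcription factors, and the 10 genes Klf2, Klf3, Klf4, Klf5, Klf6, Klf7, Klf9, Klf10, Klf13 and Klf15 were followed here in epithelial cells of the mouse lung at stage E18.5, close to birth. They were taken by name, each through the probe set whose platform annotation gives that symbol alone, and all 10 were found among the 19938 genes measured in this way. Each had 1 such probe set, so no choice between probe sets was needed. The study set 4 knockout arrays against 4 control arrays. In the knockout animals the Hippo kinase genes Mst1 and Mst2 (symbols Stk4 and Stk3) had been deleted with ShhCre, which acts in epithelial progenitors of the developing lung, and the label of this genotype is Mst1/2 CKO. The control animals are labelled Control without further detail, so whether they carried ShhCre or unrecombined alleles is not given in the sources used here. In both groups lungs were dissociated and Epcam(+) cells were taken with magnetic beads, and the labels call the arrays biological replicates. Whether each array stands for 1 animal is not stated, so the p-values measure the spread between these arrays.

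Members of this family share a set of C2H2 zinc fingers at the carboxyl end, through which they bind GC boxes and CACCC boxes in promoters, and differ in the part that recruits cofactors. By these cofactors the family is usually divided into repressors that bind CtBP, factors that act mainly as activators, and factors that bind the corepressor Sin3a. In the mouse lung epithelium Klf5 is known to be needed for maturation around birth. Several members, among them Klf2, Klf4 and Klf6, are also known as genes that respond quickly to stress and to the preparation of single cells from tissue. The comparison asks which of them differ in level when the kinases that restrain the coactivators Yap and Taz are removed.

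Values are log2 expression as the authors deposited it, differences are knockout minus control with the standard error of limma (SE, n = 4 arrays per group), and each p-value was adjusted over all 19938 genes (Benjamini-Hochberg). The array medians lay between 7.21 and 7.30. Stk4 read 9.45, 9.44, 9.31 and 9.24 in knockout replicates 1 to 4, against 9.59, 9.84, 9.59 and 9.62 in control replicates 1 to 4, a difference of −0.30 (SE 0.076, limma adjusted p = 0.0188) that no longer passed without knockout replicate 3 (−0.28, adjusted p = 0.0592). The call was also lost without knockout replicates 1 and 4 together and with each marker mean as a covariate. Whether this probe set covers the deleted exons is not known, so it is no check of the deletion, and Stk3 was not analysed here. Epcam averaged 10.07 ± 0.17 in knockout and 10.06 ± 0.15 in control arrays (SD, n = 4 each), and the lung epithelial genes Nkx2-1 (11.11 in knockout and 11.16 in control) and Sftpc (13.32 in knockout and 13.38 in control) were high in both. Sftpc was the exception among 12 alveolar type 2 markers, of which the other 11 fell (median difference of the 12, −0.99). The epithelial cells of the 2 groups were therefore not alike in these markers. Markers of other cells were measured as well. The mean over 14 endothelial markers was 9.09 to 9.19 in knockout and 8.76 to 9.05 in control arrays, and that over 14 mesenchymal markers 7.98 to 8.47 in knockout and 7.75 to 8.18 in control arrays.

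Of the 10 Kruppel-like factors 1 rose, Klf10, and 2 fell, Klf4 and Klf9, while 7 did not pass the test. Among all genes 8.60% rose and 10.2% fell, 18.8% in all. All 10 members lay above the median level of the genes. When only the 9969 genes above that level were tested, 30.9% of them passed, and 1 member rose and 3 fell. In 5 of the 10 the knockout and control values did not overlap, against 22.1% of all genes, and 6 had an unadjusted p under 0.05. The members' median difference was −0.13, beside −0.02 over all genes, and their median difference without regard to sign was 0.21, beside 0.10. The 22.1%, the ranks and the medians over all genes include dim genes and were not computed for genes above the median level alone. None of the 10 reached a 2-fold difference, a size that 346 of the 19938 genes reached. The members varied little within the groups, with standard deviations of 0.041 to 0.23 over the knockout arrays and 0.032 to 0.18 over the control arrays.

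**Figure D1:**
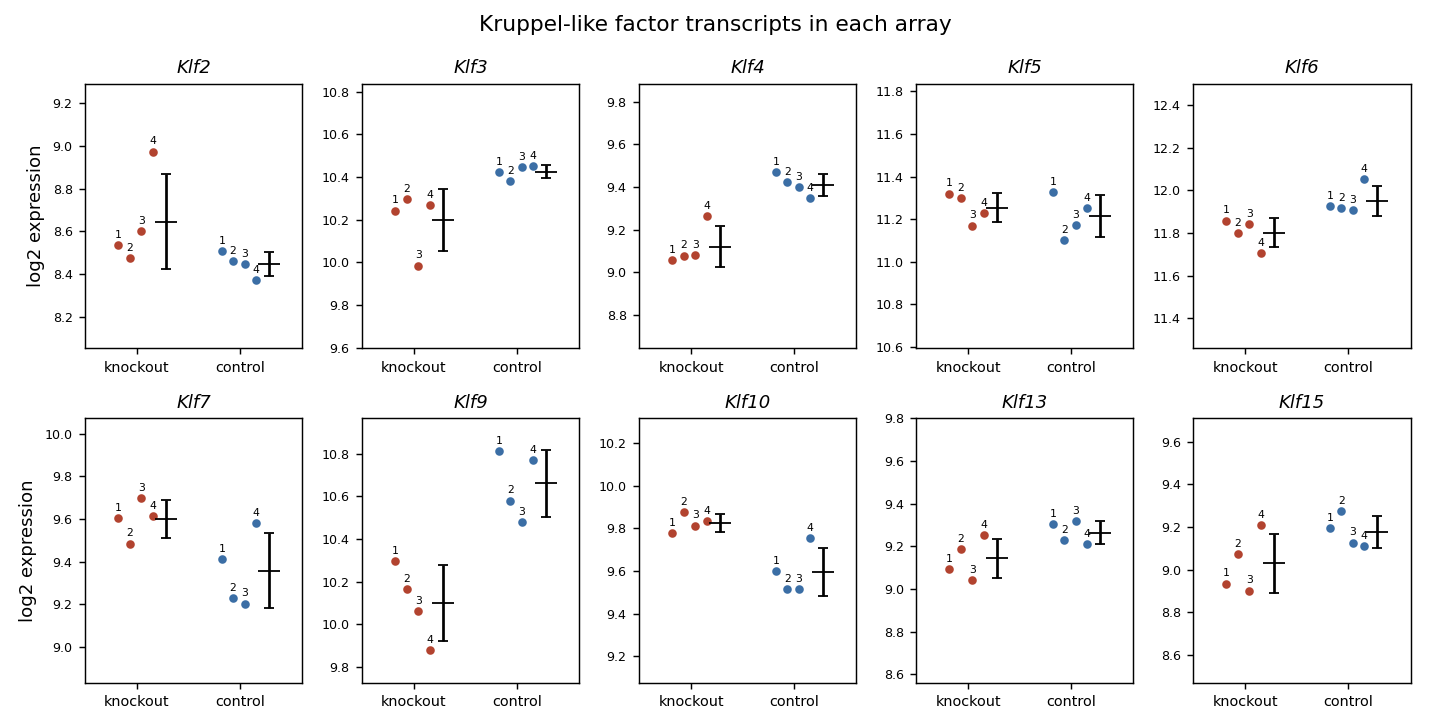
Log2 expression of the 10 Kruppel-like factors in each array, with knockout arrays left (red) and control arrays right (blue), numbered by replicate. Bars give the mean and standard deviation of 4 arrays, and every panel spans the same height on the log2 axis. Klf9 and Klf4 lie lower in all 4 knockout arrays and Klf10 lies higher.

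The Sin3a-binding members held the largest difference in the set. Klf9, a factor induced by glucocorticoids and thyroid hormone, read 10.30, 10.16, 10.06 and 9.88 in knockout replicates 1 to 4, against 10.81, 10.58, 10.48 and 10.77 in control replicates 1 to 4. The groups did not overlap, with knockout replicate 1 nearest to the control arrays and knockout replicate 4 farthest from them. Klf9 was 1.47-fold lower in knockout cells (−0.56, SE 0.10, limma adjusted p = 0.00286). The call held without any 1 array, with differences from −0.63 to −0.49. It was lost with the mesenchymal (−0.45, adjusted p = 0.0502) or the endothelial (−0.68, adjusted p = 0.125) marker mean as a covariate.

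Klf10, first described as an early gene induced by TGF-beta, moved the other way. It read 9.78, 9.88, 9.81 and 9.83 in knockout replicates 1 to 4, against 9.60, 9.52, 9.52 and 9.76 in control replicates 1 to 4. The knockout values lay close together and all above the control values, of which control replicate 4 came nearest. The rise was 1.17-fold (0.23, SE 0.066, limma adjusted p = 0.0344). It lay near the threshold, and its call ended in 14 of 19 alternatives, among them the omission of any 1 array other than control replicate 4 (0.20 to 0.25 in those cases, adjusted p between 0.0505 and 0.0982). The endothelial marker mean was likewise highest among the control arrays in control replicate 4, at 9.05, and the Klf10 difference with that mean as a covariate was 0.03 (adjusted p = 0.973). With the mesenchymal mean it was 0.17 (adjusted p = 0.285), and with the mean of the immediate early genes, described below, 0.47 (adjusted p = 0.118). Other means, among them the mesenchymal (8.18) and alveolar type 1 (11.32), were also highest in that control array.

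Klf13, known in the mouse and human for its role in T lymphocytes, did not pass. It read 9.09, 9.19, 9.04 and 9.25 in knockout replicates 1 to 4, against 9.30, 9.23, 9.32 and 9.21 in control replicates 1 to 4. Knockout replicate 4 lay within the range of the control arrays. The difference was −0.12, with a 95% interval from −0.26 to 0.02 (limma adjusted p = 0.239).

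Among the members that act mainly as activators, Klf4 was the one that fell. Klf4, needed for barrier formation in the skin and for goblet cells of the colon, read 9.06, 9.08, 9.08 and 9.26 in knockout replicates 1 to 4, against 9.47, 9.42, 9.40 and 9.35 in control replicates 1 to 4. Knockout replicates 1 to 3 lay close together, knockout replicate 4 lay above them, and the groups did not overlap. Klf4 was 1.22-fold lower (−0.29, SE 0.063, limma adjusted p = 0.00868). Leaving out any 1 array kept the call, with differences from −0.34 to −0.27. The call ended with the endothelial marker mean as a covariate (−0.29, adjusted p = 0.342), a mean that did not overlap between the groups, so in that fit it and the genotype cannot be told apart.

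The promoters of Klf9 and Klf4, the members that fell, are shown because the family is known for binding GC and CACCC boxes, also in the promoters of its own genes. Each is the stretch of 250 bases before the RefSeq start in build GRCm38.p6, written 5′ to 3′ on the strand of the gene, with matches on either strand to CCGCCC (a GC box), to the CACCC box, to CATTCC (a Tead site) and to the palindromic glucocorticoid receptor site in capitals. The Klf9 promoter lies at chr19:23140976-23141225 on the plus strand and the Klf4 promoter at chr4:55532476-55532725 on the minus strand.
Klf9: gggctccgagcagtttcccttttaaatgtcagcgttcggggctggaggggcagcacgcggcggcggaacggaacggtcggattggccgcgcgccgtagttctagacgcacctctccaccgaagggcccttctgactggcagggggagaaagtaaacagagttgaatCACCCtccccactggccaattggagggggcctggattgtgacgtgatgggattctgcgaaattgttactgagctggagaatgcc
Klf4: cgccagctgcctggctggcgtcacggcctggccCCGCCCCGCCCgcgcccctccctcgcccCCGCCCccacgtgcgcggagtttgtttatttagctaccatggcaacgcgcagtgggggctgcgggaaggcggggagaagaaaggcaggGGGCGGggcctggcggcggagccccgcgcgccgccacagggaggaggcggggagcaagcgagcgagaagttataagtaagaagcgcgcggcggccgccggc
The Klf9 stretch held 1 CACCC and 0 CCGCCC, and the Klf4 stretch held 0 CACCC and 4 CCGCCC, of which the first 2 overlap by 1 base. Of the 10 members 8 had a promoter in the table. CCGCCC stood in 7 of these 8 and CACCC in 6 of them, against 32.7% and 52.0% of all 32851 promoters of that length. The members' promoters were also rich in G and C, with a median of 71.4% against 52.4% over all promoters. Neither CATTCC nor the glucocorticoid receptor site was found in any of the 8 stretches, and these motifs stood in 12.6% and 0.4% of all promoters. These matches describe letters in a window and do not show binding.

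Klf5, the member with the best known role in the lung epithelium, did not pass. It read 11.32, 11.30, 11.17 and 11.23 in knockout replicates 1 to 4, against 11.33, 11.10, 11.17 and 11.25 in control replicates 1 to 4. The ranges overlapped nearly in full. The difference was 0.04, with a 95% interval from −0.11 to 0.19 (limma adjusted p = 0.762), and it was −0.03 with the endothelial marker mean as a covariate.

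Klf6, an activator induced early after tissue injury, read 11.86, 11.80, 11.84 and 11.71 in knockout replicates 1 to 4, against 11.93, 11.92, 11.91 and 12.05 in control replicates 1 to 4. The groups did not overlap, but the gap between them was small and control replicate 4 stood above the rest. The difference was −0.15 (SE 0.061, 95% interval −0.28 to −0.02) and did not pass after adjustment (limma adjusted p = 0.125).

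Klf2, which in endothelium answers to blood flow and in T cells keeps quiescence, read 8.54, 8.47, 8.60 and 8.97 in knockout replicates 1 to 4, against 8.51, 8.46, 8.45 and 8.37 in control replicates 1 to 4. Knockout replicate 4 stood well above the other arrays, which lay between 8.37 and 8.60 in both groups. The difference of 0.20 (SE 0.10, limma adjusted p = 0.218) did not pass and was 0.09 without knockout replicate 4. That array also had the highest endothelial (9.19), mesenchymal (8.47) and leukocyte (9.50) marker means among the knockout arrays. Knockout replicate 3 came close in the endothelial (9.17) and mesenchymal (8.41) means, with Klf2 at 8.60. Knockout replicate 4 was further highest among them in the mesothelial (8.22), erythroid (6.68) and ciliated cell (8.33) means and lowest in the alveolar type 2 mean (10.82). As a covariate, the mesenchymal mean gave a Klf2 difference of 0.09 (limma adjusted p = 0.744), the endothelial mean 0.14 (adjusted p = 0.884) and the mean of the immediate early genes, which cells switch on quickly after a stimulus or dissociation, 0.47 (adjusted p = 0.348). The immediate early gene mean was also highest among the knockout arrays in knockout replicate 4 (10.84). The part of the leukocyte mean was not tested. In cells selected in bulk, a larger share of another cell type and more RNA per cell cannot be told apart.

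Klf7, best known for its role in developing neurons, read 9.60, 9.48, 9.70 and 9.61 in knockout replicates 1 to 4, against 9.41, 9.23, 9.20 and 9.58 in control replicates 1 to 4. The groups overlapped through control replicate 4 alone, which lay above knockout replicate 2. The difference was 0.24 (SE 0.089, limma adjusted p = 0.0871). Without control replicate 4 it was 0.32 and passed (adjusted p = 0.0195), and with the endothelial marker mean as a covariate it was −0.10. Klf7 and Klf10 shared a high control replicate 4, the control array with the highest endothelial and mesenchymal marker means (9.05 and 8.18). It was also the highest control array in the immediate early gene (11.16), mesothelial (7.92) and alveolar type 1 (11.32) means.

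Of the repressors that bind CtBP, Klf3 belongs to the set. Klf3, a repressor studied in red cell and fat development, read 10.24, 10.30, 9.98 and 10.27 in knockout replicates 1 to 4, against 10.42, 10.38, 10.44 and 10.45 in control replicates 1 to 4. The control arrays lay close together and above every knockout array, of which knockout replicate 3 was lowest. The difference of −0.23 (SE 0.074, 95% interval −0.39 to −0.06) stayed just short of the threshold (limma adjusted p = 0.0565). It passed without knockout replicate 4 (adjusted p = 0.0474), after subtraction of each array's median (adjusted p = 0.0409) and when dim genes were left out of the test (adjusted p = 0.0425). In the other 16 alternatives it did not pass. Its difference was −0.16 without knockout replicate 3 (adjusted p = 0.124) and −0.05 with the immediate early gene mean as a covariate (adjusted p = 0.933).

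Klf15, a regulator of amino acid and glucose metabolism that glucocorticoids induce, read 8.93, 9.07, 8.90 and 9.21 in knockout replicates 1 to 4, against 9.19, 9.28, 9.13 and 9.11 in control replicates 1 to 4. Knockout replicate 4 lay among the control values, with knockout replicates 1 to 3 below. The difference was −0.15, with a 95% interval from −0.32 to 0.02 (limma adjusted p = 0.239).

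**Figure D2:**
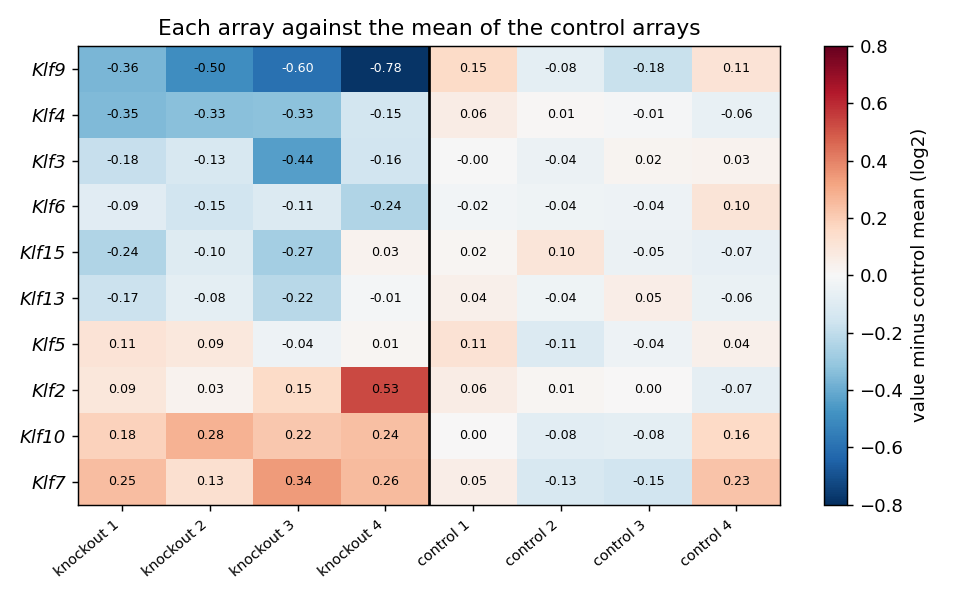
Value of each Kruppel-like factor in each array minus the mean of the 4 control arrays, on the log2 scale, with knockout arrays left of the line and control arrays right of it. Rows are ordered by the difference. Klf9 is at −0.36 to −0.78 in the knockout arrays, and Klf2 reaches 0.53 in knockout replicate 4 only.

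The mouse has further Klf genes and the related Sp factors, which bind similar boxes, and 15 of 16 such genes listed were measured. Of these 1 rose, 2 fell and 12 did not pass, with a median difference of −0.05. That share is near the 18.8% of all genes that passed, whose median difference over all genes was −0.02. Those that did not pass differed by −0.15 to 0.15 (limma adjusted p from 0.158 to 0.986).

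Klf12, a repressor of the CtBP-binding group like Klf3, read 8.45, 8.42, 8.42 and 8.80 in knockout replicates 1 to 4, against 7.96, 7.93, 7.98 and 7.90 in control replicates 1 to 4. The groups lay far apart, and knockout replicate 4 was highest. Klf12 rose by 0.58 (SE 0.086, limma adjusted p = 7.51e-04), the largest rise among the 17 Klf genes measured. Its call ended with the endothelial marker mean as a covariate (0.55, adjusted p = 0.156).

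Klf11, the closest relative of Klf10, read 9.12, 9.19, 8.96 and 9.26 in knockout replicates 1 to 4, against 9.56, 9.38, 9.55 and 9.64 in control replicates 1 to 4. Here too the groups did not overlap. Klf11 fell 1.32-fold (−0.40, SE 0.079, limma adjusted p = 0.00519), the direction opposite to that of Klf10. The fall no longer passed with the endothelial (−0.53, adjusted p = 0.116) or the immediate early gene (−0.04, adjusted p = 0.946) mean as a covariate. Sp5, a factor switched on by Wnt signals, fell 1.64-fold (−0.72, SE 0.059, limma adjusted p = 2.24e-05), with 6.84 to 6.88 in knockout and 7.49 to 7.69 in control arrays.

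Counted by cofactor over all 17 Klf genes, the Sin3a-binding group had 1 gene that rose and 2 that fell of 6, the activators had 0 that rose and 1 that fell of 6, and the CtBP-binding group had 1 that rose and 0 that fell of 3. Klf15 and Klf17 were placed in no group, and neither passed the test. The share that passed was 18.8% over all genes and 30.9% over those above the median level. The groups are too small for these counts to rank them. No group moved as a whole. Differences ran from −0.56 to 0.23 in the Sin3a-binding group, from −0.29 to 0.24 among the activators and from −0.23 to 0.58 in the CtBP-binding group.

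**Figure D3:**
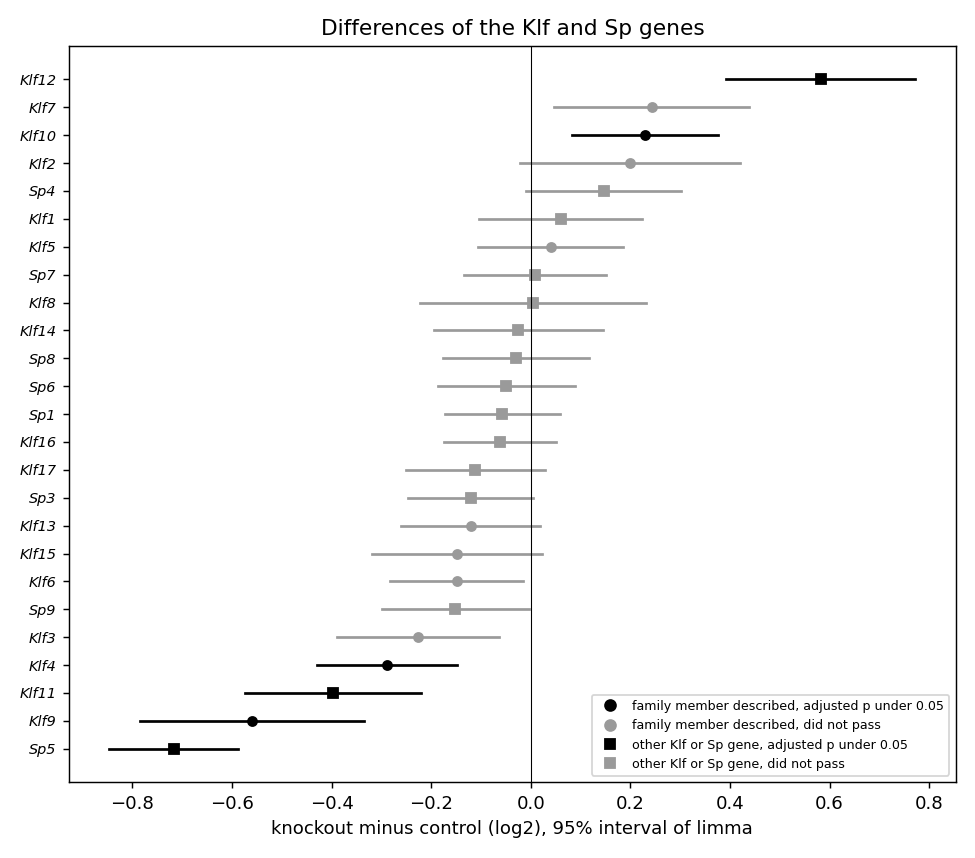
Difference between knockout and control on the log2 scale, with the 95% interval of limma, for the 10 Kruppel-like factors described (circles) and 15 other Klf and Sp genes (squares). Black marks passed at an adjusted p under 0.05 and grey marks did not. Sp5 (−0.72), Klf9 (−0.56), Klf11 (−0.40) and Klf4 (−0.29) lie below 0, and Klf10 (0.23) and Klf12 (0.58) above it.

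Genes with the most similar course over the 8 arrays were looked up for the 3 members that passed, by the root mean square difference between values set to each gene's own control mean. For Klf9 these were Lss, the lanosterol synthase of cholesterol synthesis (0.064), Azin1, an inhibitor of antizyme (0.077), and Rnf185, a ubiquitin ligase (0.080). Lss fell by 0.57 (SE 0.091), Rnf185 by 0.52 (SE 0.092) and Azin1 by 0.49 (SE 0.096) on the log2 scale. For Klf4 they were Srgap3 (0.038), Kcnip2 (0.041) and Tg (0.045), and for Klf10 Lsm5 (0.042), Uaca (0.042) and Uchl3 (0.045). Because these genes were chosen for likeness over the same arrays, their direction and approximate size were set by the choice and carry no test.

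Partners of the family were measured too. Of 16 corepressors, coactivators and ubiquitin ligases 3 rose, 1 fell and 12 did not pass, with a median difference of −0.01. Beside this, 18.8% of all genes passed, and 30.9% of those above the median level. Wwp1, a ubiquitin ligase that acts on Klf2 and Klf5, rose by 0.35 (SE 0.066, limma adjusted p = 0.00388). Fbxw7, the substrate receptor of another ligase that acts on Klf2 and Klf5, rose by 0.21 (SE 0.058, adjusted p = 0.0279). The other calls, chosen with their values known, were Ctbp2, the corepressor of Klf3 and Klf12 (0.21, SE 0.062, adjusted p = 0.0405), and the acetyltransferase Ep300 (−0.20, SE 0.063, adjusted p = 0.0467). Sin3a itself did not pass (−0.22, SE 0.073, adjusted p = 0.0592) and was likewise chosen with its value known.

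Genes that reports in other settings place under control of Kruppel-like factors mostly rose where they changed. Of 15 measured of 18 listed, 7 rose, 1 fell and 7 did not pass, with a median difference of 0.26. Over all genes 8.60% rose and 10.2% fell. This list was compiled with earlier results of these data known and shares Vegfa with the alveolar type 1 markers. Its counts therefore do not measure the activity of any factor. Krt4, a mucosal keratin that Klf4 is known to activate in the oesophagus, was 4.81-fold higher (2.27, SE 0.14, limma adjusted p = 7.76e-06), while Klf4 fell. Cdk1, a mitotic kinase, was 1.55-fold higher (0.63, SE 0.072). The list includes genes of endothelium such as Thbd (0.32, SE 0.097) and S1pr1 (0.23, SE 0.067), both chosen with their values known, and 5 of 14 endothelial markers rose in the same arrays, led by Tek (0.45, SE 0.088) and Egfl7 (0.48, SE 0.095).

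Klf9 and Klf15 are glucocorticoid targets, and 11 other genes of that response were set beside them. Of these 1 rose, 2 fell and 8 did not pass, with a median difference of −0.03, while 8.60% of all genes rose and 10.2% fell. Lcn2, a secreted siderophore-binding protein, fell by 1.66 (SE 0.16, limma adjusted p = 5.37e-05) and Errfi1, a feedback inhibitor of the EGF receptor, by 0.34 (SE 0.082, adjusted p = 0.0144). Fkbp5, a chaperone much used as a readout of the receptor, rose by 0.32 (SE 0.093, adjusted p = 0.0359), while Per1 (−0.12), Tsc22d3 (−0.06) and the receptor Nr3c1 (0.09) did not pass. Fkbp5, Per1, Tsc22d3 and Nr3c1 were chosen with their values known.

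Immediate early genes, which like Klf2, Klf4 and Klf6 respond to dissociation, were lower in the knockout arrays. Of 17 measured 13 fell, 1 rose and 3 did not pass, with a median difference of −0.36, while 10.2% of all genes fell and 8.60% rose. Egr2 fell by 1.08 (SE 0.11, limma adjusted p = 6.85e-05) and Socs3 by 0.79 (SE 0.064, adjusted p = 2.16e-05). The mean over the list was 10.69 to 10.84 in knockout and 10.99 to 11.16 in control arrays, without overlap. With this mean as a covariate Klf4 differed by −0.21 (adjusted p = 0.585), Klf9 by −0.70 (adjusted p = 0.173) and Klf10 by 0.47 (adjusted p = 0.118). Because that mean separates the groups almost as the genotype does, the covariate and the genotype cannot be told apart in these fits.

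**Figure D4:**
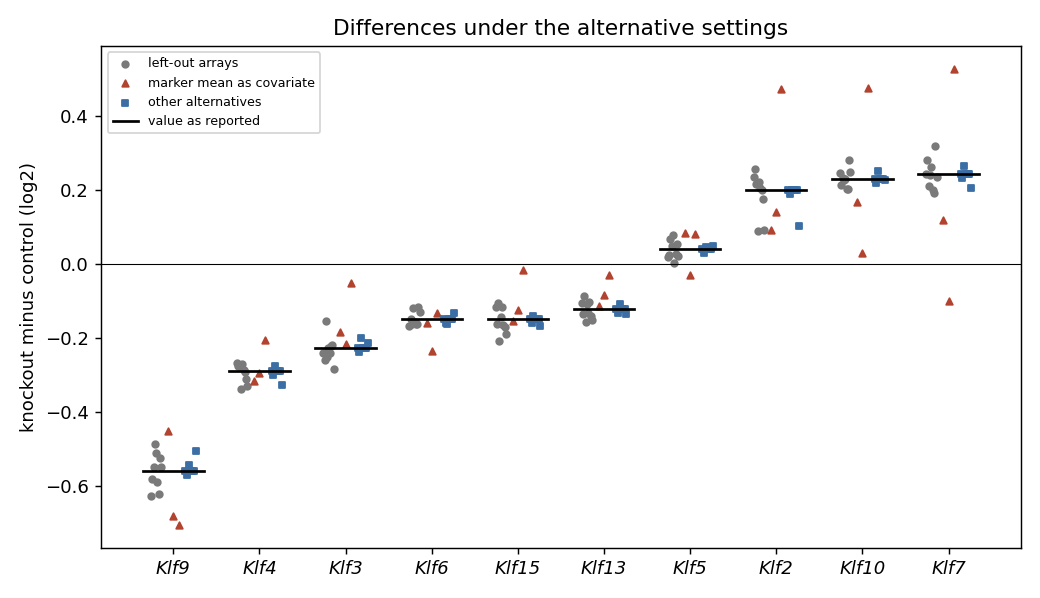
Difference between knockout and control (log2) of the 10 Kruppel-like factors as reported (black line) and under 19 alternatives: arrays left out (grey circles), a marker mean as a covariate (red triangles) and others (blue squares). Klf9 and Klf4 stay below 0 throughout, while Klf7 and Klf5 turn to −0.10 and −0.03 with the endothelial marker mean as a covariate.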

How the data were processed

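RNA of Epcam(+) lung cells was measured on single-colour arrays, 4 knockout and 4 control, per the labels. The table deposited by the authors holds 35556 probe sets. Its log2 scale was read from the values (2.90 to 13.95), and how the authors normalized it is not stated in these sources. Because the arrays were already on nearly the same scale, none was rescaled, and a change in total RNA per cell would not show. The number of arrays limits the precision.

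Probe sets with 1 symbol in the platform annotation (21789) were used. Of these 21698 matched RefSeq by gene number, which changed 0 symbols. For 999 genes with several probe sets the one with the highest mean was kept, leaving 19938 genes. The group comparison used limma 3.58.1 (lmFit, eBayes) under R 4.3.3, two-sided, no covariate, Benjamini-Hochberg over all genes, threshold 0.05. The fit was tested on simulated data with independent noise for each gene and few changed genes. Genes of these arrays vary together, so that run does not check the p-values given here. Promoters are from RefSeq tables of GRCm38.p6.

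Named genes were all members, Stk4, changed Klf and Sp genes, the 2 smallest p of each other list and the 3 most alike genes. Alternatives left out arrays, rescaled, changed the filter, probe sets or spread model, or added a block or marker mean. Most marker lists are given as counts or means only. The members, lists, cofactor groups, motifs and alternatives were chosen with earlier results of these data known.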

Additional observations from a re-analysis of the deposited data

Results flagged for a closer look

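In 3 of the 26 groups of 4 arrays examined (13 genes: the 10 Kruppel-like factors, Klf11, Klf12 and Sp5), 1 array stood apart from the other arrays, with a gap beyond Dixon's 95% critical value. Chance flags about 1 group in 20. Knockout replicate 4 was high for Klf4 (9.264) and for Klf12 (8.801). Control replicate 4 was high for Klf6 (12.053). The mean of the immediate early genes was highest within each group in the same arrays, at 10.84 in knockout replicate 4 and 11.16 in control replicate 4. So were the endothelial (9.19 and 9.05), mesenchymal (8.47 and 8.18) and mesothelial (8.22 and 7.92) means. With the immediate early gene mean as a covariate the difference was −0.21 for Klf4 (limma adjusted p = 0.585), −0.13 for Klf6 (adjusted p = 0.75) and 0.87 for Klf12 (adjusted p = 0.0357). With the endothelial mean it was −0.295 for Klf4, −0.235 for Klf6 and 0.546 for Klf12, and with the mesenchymal mean −0.315, −0.158 and 0.502. The reason for the flagged values was not tested. Without knockout replicate 4 Klf4 differed by −0.34 and Klf12 by 0.49, and both kept their calls.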

How the results depend on the processing

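Over 19 alternatives, 190 values of the 10 Kruppel-like factors were recomputed and 2 changed sign, Klf5 (−0.03) and Klf7 (−0.10), both with the endothelial marker mean as a covariate. The count of members that rose, 1 as reported, was between 0 and 2 with 1 array left out. It was 0 without knockout replicates 1 and 4 together, after subtraction of each array's median, when every probe set was tested, and with the mesenchymal, the endothelial or the immediate early gene mean as a covariate. The count that fell, 2 as reported, was 3, with Klf3 added, without knockout replicate 4, after subtraction of each array's median and when only genes above the median level were tested. It was 1, 0 and 0 with these 3 means in that order and 2 in the other 13 alternatives. With the endothelial mean as a covariate 425 genes of all kinds were called, against 3746 as reported, and with the immediate early gene mean 1079. These means differ between the groups, so such fits have little left to estimate the genotype from. Whether the replicate numbers pair the arrays is not given by the labels. Deviations of same-numbered arrays correlated between −0.082 and 0.095, and 1 of 8 arrays correlated best with its own number. With 4 arrays per group such correlations cannot decide whether animals were paired. With a replicate block 0 members rose and 2 fell, Klf10 had an adjusted p of 0.0625, and 3494 genes were called in all. Among the other Klf and Sp genes Sp5 kept its call under all 18 alternatives that tested it. Its level was low, with means of 6.86 in knockout and 7.57 in control arrays. The alternative restricted to genes above the median level therefore left Sp5 out.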

Other observations

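Counts for the marker lists give the setting of the Kruppel-like factors, beside 8.60% of all genes that rose and 10.2% that fell. Alveolar type 1 markers had 10 genes that rose and 0 that fell of 12, and alveolar type 2 markers 0 that rose and 11 that fell of 12. Ciliated cell markers had 6 that fell of 10, club and secretory markers 4 that fell of 8, and neither list had a gene that rose. Basal and stratified markers had 6 that rose of 9, and general epithelial genes 1 that rose and 1 that fell of 12. Among markers of other cells 5 of 14 endothelial, 3 of 14 mesenchymal, 1 of 6 mesothelial and 1 of 7 erythroid genes rose and none fell, and of 12 leukocyte genes 2 rose and 1 fell. These lists were compiled with earlier results of these data known.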
